A study of Mus musculus with 10 samples.

Results

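E14Tg2a.4 mouse embryonic stem (ES) cells were sorted by fluorescence into 5 fractions, each sequenced as 2 RNA libraries from different days. One reporter line carries a knock-in fluorescent protein at Esrrb and a distinct one at Tbx3, and gave Esrrb-/Tbx3- (double-negative), Esrrb+/Tbx3- (single-positive) and Esrrb+/Tbx3+ (double-positive) cells. The other line carries a piggyBac transgene with a fluorescent reporter under a Zscan4c promoter fragment, and gave Zscan4-negative and Zscan4-positive cells. The labels do not say whether either line is 1 clone. The comparison described here sets double-positive cells of the first line against Zscan4-negative cells of the other, which is 4 of the 10 libraries. Reporter line and sort change together between these fractions and cannot be told apart by this pair alone. Differences that recur between Zscan4-positive cells and each of the 3 Esrrb/Tbx3 fractions are therefore given separately, as differences between the lines.

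The deposited values are FPKM, sequenced fragments per transcript kilobase relative to all that mapped, with 1 merged value per gene and fraction. For that reason no SD or p-value accompanies any difference below, replicates cannot be compared, and the depth is unknown. Totals of FPKM ran from 507495 to 552117 per fraction. Of 32361 rows, 12021 reached 1 FPKM in double-positive or Zscan4-negative cells and were compared. Every difference is double-positive minus Zscan4-negative on the log2(FPKM + 1) scale unless another pair is named, and understates the difference of low genes. A row was called higher where this difference reached 2-fold. In lists of 5 values, fractions stand in the order double-negative, single-positive, double-positive, Zscan4-negative, Zscan4-positive.

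ES cells in culture move among states that share core pluripotency factors. Naive-like cells express Esrrb, Tbx3, Nanog and Klf factors, while formative cells, which resemble the early post-implantation epiblast, express Pou3f1, Sox3 and Dnmt3a. A rare state marked by Zscan4 transiently expresses genes of the 2-cell embryo. Imprinted genes are expressed from 1 parental allele, under DNA methylation marks inherited from the gametes that can be gained or lost in cultured ES cells.

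The pair was alike, and core pluripotency factors were expressed in every fraction. Double-negative and single-positive cells also carried a fibroblast and T-cell profile, described below. The difference was under 1.5-fold for 11119 rows (92.5%). Pou5f1, which encodes the core factor OCT4, was at 1987, 2196, 2739, 2762 and 2437 FPKM. Sox2, its DNA-binding partner, was at 209, 347, 437, 363 and 341 FPKM. The reporter genes themselves were close in the pair: Esrrb was at 243 FPKM in double-positive and 203 in Zscan4-negative cells, and Tbx3 at 12.6 and 11.4. In these bulk fractions, fewer cells of a type and less RNA per cell cannot be told apart. Only 101 rows (0.840%) were higher in double-positive cells and 107 (0.890%) were higher in Zscan4-negative cells. Among these, 79 and 77 were protein-coding or long noncoding genes, and the others were short RNAs or symbols absent from the RefSeq gene table.

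**Figure D1:**
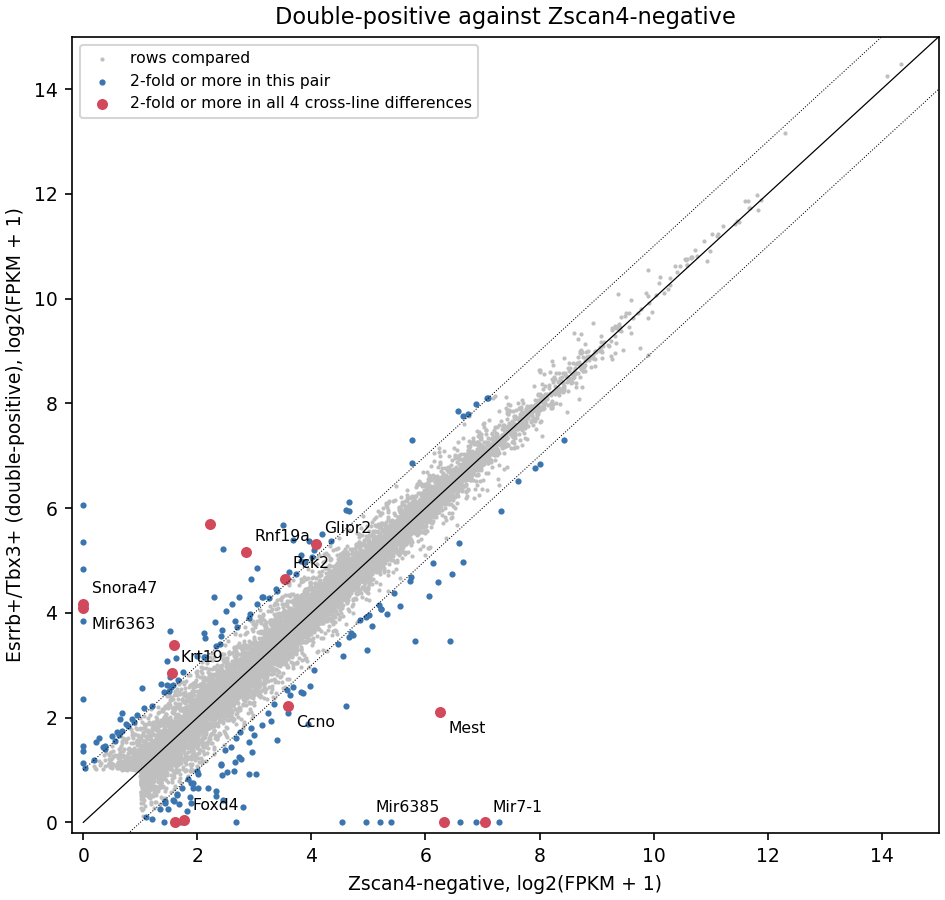
Level of each of the 12021 rows in double-positive cells (y axis) and Zscan4-negative cells (x axis), both as log2(FPKM + 1), with the line of equality solid and 2-fold dotted. Blue points are the rows called in this pair and red points those also separated from Zscan4-positive cells in every Esrrb/Tbx3 fraction, and Mest lies farthest from the line of equality among the labelled coding genes.

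Mest, a paternally expressed imprinted gene that encodes a protein of the alpha/beta hydrolase fold, had the largest difference of any coding gene with at least 5 FPKM. In the Esrrb/Tbx3 line it was at 4.22 FPKM (double-negative), 3.01 (single-positive) and 3.32 (double-positive), against 75.3 (Zscan4-negative) and 70.1 (Zscan4-positive) in the other. Every fraction of the Zscan4 line was high and every fraction of the Esrrb/Tbx3 line was low, with no overlap and little variation within a line. The difference was -4.14, and the other 5 pairs across the lines gave -3.77 to -4.25. The gene lies on chromosome 6 (mm10, 30723547 to 30748465, plus strand). RefSeq lists more than 1 start for it, and the 300 bases around a start, from 250 before to 50 after, are shown for the upstream start and a downstream one because imprinted control of the locus is exerted through DNA methylation at CpG sites. The sequences are RefSeq's for build GRCm38.p6, on the plus strand, and capitals mark the motif CG, which reads the same on both strands.
Mest upstream start, chr6:30733256-30733555: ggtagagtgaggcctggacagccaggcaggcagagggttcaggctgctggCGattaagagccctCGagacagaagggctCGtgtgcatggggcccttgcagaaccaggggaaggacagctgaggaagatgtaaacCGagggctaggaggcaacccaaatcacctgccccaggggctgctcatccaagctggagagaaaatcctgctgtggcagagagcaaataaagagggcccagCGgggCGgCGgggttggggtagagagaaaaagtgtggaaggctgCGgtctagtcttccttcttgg
Mest downstream start, chr6:30737800-30738099: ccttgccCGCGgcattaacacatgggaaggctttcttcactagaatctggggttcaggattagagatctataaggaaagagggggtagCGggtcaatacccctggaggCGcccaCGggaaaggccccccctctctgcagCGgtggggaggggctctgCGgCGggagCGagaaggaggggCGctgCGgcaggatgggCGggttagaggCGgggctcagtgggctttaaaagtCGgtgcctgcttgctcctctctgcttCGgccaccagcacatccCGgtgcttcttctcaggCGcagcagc
The upstream window holds 8 CG and the downstream one 17. Of 32817 such promoter windows in the table, 94.6% hold at least 1 CG and the median is 7, while 48.6% hold 8 or more and 31.4% hold 17 or more. Methylation was not measured here.

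The difference at Mest did not extend to its neighbours. Within 500 kb of the gene, 18 other rows are listed, 6 could be compared, and none reached 2-fold, with differences from -0.00 to 0.42. Copg2, a coatomer gene on the opposite strand whose annotation overlaps Mest by 912 bases, was at 24.3, 26.0, 26.1, 25.4 and 23.6 FPKM. Cep41, a centrosomal protein gene, was at 5.50, 5.65, 5.40, 5.40 and 6.48 FPKM. The labels do not state whether strand was kept, and without it reads from the overlap cannot be assigned to Mest or Copg2. Copg2 was level across fractions in which Mest was not. Mir335, a miRNA gene inside Mest, was listed at 0 in every fraction. By Euclidean distance over the 5 fractions on the log2 scale, after subtracting each gene's mean, the 5 profiles nearest to Mest were those of Foxd4 (2.69), Crct1 (2.89), Arhgef26 (3.08), Sprr2b (3.08) and Ccno (3.09). A flat profile lies at 4.43 from Mest, so none of them was close on this scale. Arhgef26, for example, was at 23.4 FPKM in Zscan4-positive but only 1.63 in Zscan4-negative cells. Foxd4 did separate the lines, at low levels where adding 1 FPKM shrinks a difference. With 0.1 FPKM added instead, the difference in the pair was -4.30 for Foxd4 and -4.46 for Mest.

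Few other rows separated the lines. A row was counted where the difference in the pair and all 3 differences from Zscan4-positive cells were 2-fold or more in the same direction. The count was 8 rows higher in the Esrrb/Tbx3 line (0.0666%) and 6 higher in the Zscan4 line (0.0499%), and 7 (0.0582%) and 3 (0.0250%) of them were also 2-fold apart in every one of the 6 pairs across the lines. The single pairs differed far more. Against Zscan4-positive cells, 7.63% of rows were higher and 4.96% lower in double-negative, 4.03% and 2.39% in single-positive, and 0.782% and 1.95% in double-positive cells. Against Zscan4-negative cells, 5.82% were higher and 2.00% lower in double-negative, and 3.24% and 0.699% in single-positive cells. The double-negative and single-positive fractions carry a fibroblast and T-cell profile, with summed FPKM of 17 fibroblast genes of 2827 and 2125 against 315 to 375 in the other fractions. For 13 T-lineage genes the sums were 548 and 396 against 22.0 to 35.3. The part of this profile in the line differences was not tested.

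Rnf19a, which encodes a RING-type E3 ubiquitin ligase, was the coding gene furthest above the Zscan4 line. It was at 58.4, 33.2, 34.9, 6.20 and 6.64 FPKM, with a difference of 2.32 and a smallest value of 2.16 among the 4 counted. Glipr2, which encodes a Golgi-associated protein of the CAP superfamily, was at 36.4, 38.6, 38.8, 15.9 and 14.5 FPKM and differed by 1.24. Both genes were nearly constant within the Zscan4 line, and Glipr2 also within the Esrrb/Tbx3 line. Pck2, the mitochondrial phosphoenolpyruvate carboxykinase, was at 35.3, 24.7, 24.1, 10.5 and 9.83 FPKM, with a difference of 1.12. An antisense gene, Gm10876, overlaps Pck2 by 2134 bases, and reads there cannot be assigned without strand. Krt19, an epithelial keratin gene, was at 5.78, 4.36, 6.24, 1.93 and 1.54 FPKM, with a difference of 1.30. These 4 genes lie on chromosomes 15 (36239933 to 36283147), 4 (43957401 to 43979118), 14 (55540266 to 55551242) and 11 (100140810 to 100148665) of mm10, each on a chromosome of its own. The unmatched row AK019290, whose interval on chromosome 19 lies at Erlin1, was at 45.3, 41.1 and 50.8 FPKM in the Esrrb/Tbx3 line, 3.68 in Zscan4-negative cells and essentially 0 in Zscan4-positive cells. Erlin1 itself was at 8.58, 12.5, 11.3, 10.1 and 9.88 FPKM and did not separate the lines. Another unmatched row, BC116202 on chromosome 14 at Rpph1, was at 7.28, 10.7, 9.42, 2.01 and 1.57 FPKM. A further row of that symbol and interval was at 866, 246, 649, 390 and 1225 FPKM and did not separate the lines, so the split between the rows is uncertain.

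In the opposite direction, Mest was joined by 2 coding genes. Foxd4, a forkhead transcription factor gene on chromosome 19 (24899236 to 24901197), was at 0.0473, 0.0758 and 0.0275 FPKM in the Esrrb/Tbx3 line and at 2.42 and 1.94 in the Zscan4 line. Its difference of -1.73 rests on low levels throughout. Ccno, the cyclin O gene known for centriole amplification in multiciliated cells, lies on chromosome 13 (112987802 to 112990777) and was at 14.4, 3.62, 3.67, 11 and 48.6 FPKM. Its difference in the pair was -1.36, yet double-negative cells stood above Zscan4-negative cells, so the lines overlapped for this gene. The unmatched row AK215960, on an unplaced contig, was at 3.59, 2.13, 0, 2.06 and 9.67 FPKM. Mest and Foxd4 were thus the coding genes with no overlap among those higher in the Zscan4 line by this rule. Just outside the rule lay Nupr1, a stress-response chromatin protein gene, at 37.5, 40.2, 50.4, 10.4 and 18.3 FPKM, whose smallest of the 4 differences was 0.99. Copz2, a coatomer subunit gene, followed at 0.97. In the other direction the nearest were Sprr2b at -0.77 and Etv4 at -0.35.

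**Figure D2:**
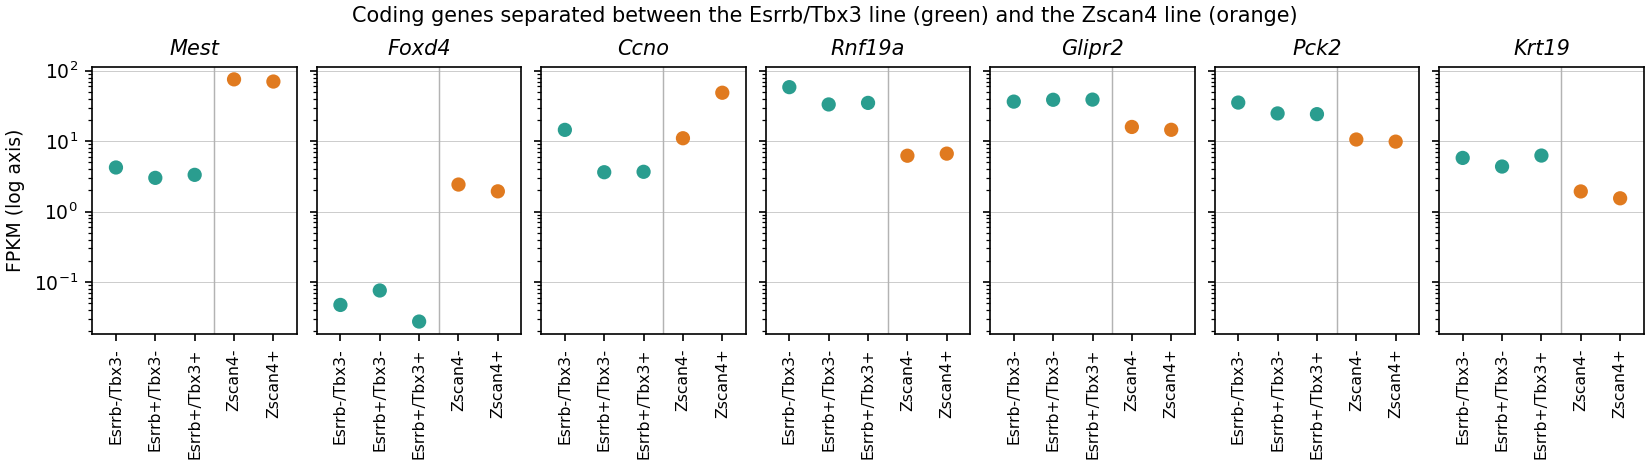
FPKM on a log axis in the 5 sorted fractions for the 7 coding genes that separate the lines by the rule of 4 differences, with 1 merged value per point, the Esrrb/Tbx3 line in green and the Zscan4 line in orange. Mest is at 3.01 to 4.22 FPKM in the green fractions and at 70.1 and 75.3 in the orange ones, while for Ccno the double-negative point at 14.4 stands above Zscan4-negative at 11.

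Short RNAs made up much of the rest. The mature sequences of the 3 miRNA genes involved are shown from RefSeq, with the seed, bases 2 to 8 that pair with targets, in capitals, since the rows are named for these products.
mmu-miR-7a-5p (Mir7-1): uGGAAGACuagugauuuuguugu
mmu-miR-6385 (Mir6385): gCAAGGAUgacagagaggaag
mmu-miR-6363 (Mir6363): uGUAGACUggacuguccucaaa
The 3 seeds differ. Mir6385 was listed at 0 in all Esrrb/Tbx3 fractions and at 79.1 and 475 FPKM in the negative and positive Zscan4 fractions. Mir7-1 was at 111, 0, 0, 130 and 312 FPKM, so the double-negative fraction was near the Zscan4-negative one. Mir6363 was at 24.9, 173 and 16.1 FPKM in the Esrrb/Tbx3 line and listed at 0 in both Zscan4 fractions. Snora47, a small nucleolar RNA gene of the H/ACA kind, was at 14.6, 19.4 and 17.0 FPKM in the Esrrb/Tbx3 line and also listed at 0 in both. The genes around 3 of them had a row to compare. Hnrnpk, which contains Mir7-1, was at 209, 219, 234, 234 and 225 FPKM. Zbed3, which contains Snora47, was at 24.9, 17.5, 13.9, 12.9 and 9.33 FPKM. Zbed3 thus fell from double-negative to double-positive cells and was nearly level in the pair, unlike Snora47. Pml, on the strand opposite Mir6385, was at 69.0, 64.4, 69.7, 82.0 and 71.0 FPKM. These precursors are 105 to 138 bases long, mature miRNAs are shorter than the inserts such libraries usually hold, and FPKM of such short features can be extreme, so these values are not read as miRNA levels.

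Away from the line differences, the genes higher in Zscan4-negative cells were mostly ones that double-negative cells also express. Pou3f1, a POU factor of the formative epiblast, was at 52.0, 5.30, 3.66, 23.5 and 12.8 FPKM, a difference of -2.39. Pim2, a serine/threonine kinase gene, was at 180, 20.04, 18.9, 66.0 and 27.7 FPKM, and Cntfr, which encodes the ligand-binding receptor for ciliary neurotrophic factor, was at 12.4, 2.40, 2.70, 14.4 and 6.10. In each of these the Zscan4-negative level stood well above single-positive and double-positive cells. The carbonic anhydrase genes Car2, Car3 and Car4 differed by -1.72, -1.98 and -1.51, and Car2, the most abundant of them, was at 108, 28.5, 25.7, 86.9 and 35.2 FPKM. Nckipsd, an adaptor gene of actin regulation on chromosome 9 (108808368 to 108818844), had another order. It was at 28.8, 37.2, 9.99, 55.1 and 43.6 FPKM, lowest in double-positive cells, with a difference of -2.35. Others among the 15 with the largest differences included Gbp2, Sox3, Tagln, Peg10, Sall2 and Prtg, at -1.51 to -2.11.

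Genes higher in double-positive cells were often lowest in double-negative and highest in double-positive cells of the Esrrb/Tbx3 line. The latter partly follows from the rule, which chose rows high in double-positive cells. Among coding or long noncoding genes with at least 5 FPKM, the largest difference, 2.78, was that of 2210011C24Rik, at 2.35, 2.97, 36.3, 4.43 and 28.8 FPKM, high in double-positive and Zscan4-positive cells only. Trpm1, a cation channel gene, was at 1.08, 7.32, 18.7, 3.91 and 14.4 FPKM, and Pmel, which encodes a structural protein of melanosomes, was at 6.26, 20.3, 40.9, 11.8 and 12.8. Lgals3, the galectin-3 gene, was at 21.7, 45.6, 68.5, 24.1 and 57.5 FPKM. A4galt, the synthase of the glycolipid globotriaosylceramide, was at 15.1, 31.4, 40.4, 14.6 and 19.4 FPKM. For these genes except 2210011C24Rik, the Zscan4-negative level was below that of single-positive cells. Calml4, a calmodulin-like gene, was at 6.56, 14.8, 18.7, 5.61 and 5.07 FPKM, so both Zscan4 fractions stood below the whole Esrrb/Tbx3 line. That order, at any size, held for 13.4% of all compared rows. The other genes among the 15 were Gm21283, Arl14epl, Pnma5, Myof, Pga5 and Pla1a at 1.39 to 1.62, besides Rnf19a, Nupr1 and Copz2 named above.

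**Figure D3:**
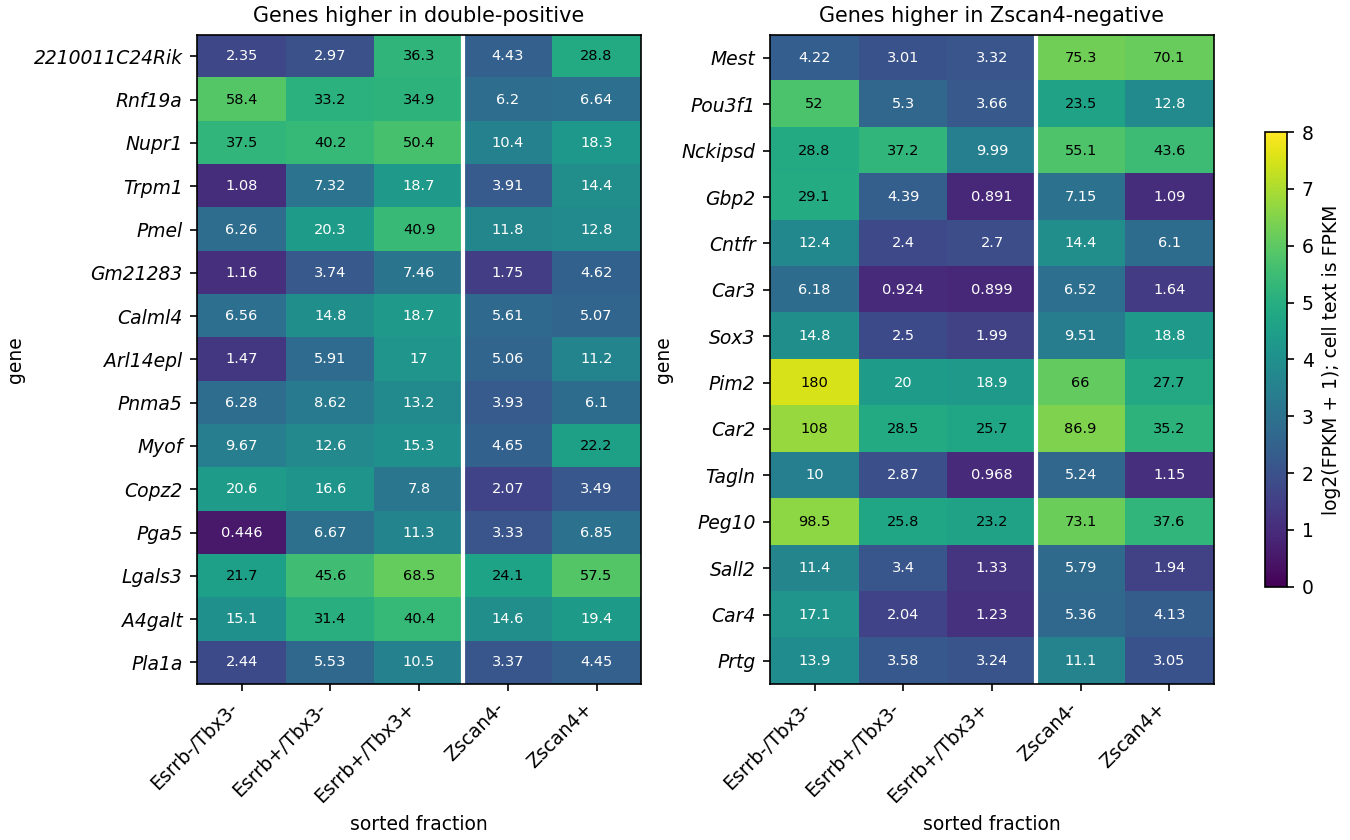
FPKM (cell text) and log2(FPKM + 1) (colour) in the 5 sorted fractions for coding or long noncoding genes among the largest differences, 15 of them higher in double-positive and 14 higher in Zscan4-negative cells, the white line dividing the reporter lines. Mest and Rnf19a change colour at that line, while Pou3f1, Pim2 and Car2 are high in both Esrrb-/Tbx3- and Zscan4- cells.

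The rows called in this pair were set beside the step from double-negative to single-positive cells, which uses no column of the pair. Over all compared rows, 1.38% were 2-fold higher in double-negative and 1.95% 2-fold higher in single-positive cells. Of the 107 rows higher in Zscan4-negative cells, 57 (53.3%) were higher in double-negative cells and 6 (5.61%) higher in single-positive cells. Of the 101 rows higher in double-positive cells, 30 (29.7%) were higher in single-positive and 3 (2.97%) in double-negative cells. Among the 15 largest coding or long noncoding differences in each direction, 12 of those higher in Zscan4-negative cells were 2-fold higher in double-negative cells, and 8 of those higher in double-positive cells were 2-fold higher in single-positive cells. Seen from the other side, 34.3% of all rows higher in double-negative than in single-positive cells were higher in Zscan4-negative cells, as were 12.8% of those higher in single-positive cells in the double-positive fraction.

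Medians over the 107 rows higher in Zscan4-negative cells were 11.4, 3.07, 1.73, 9.10 and 3.48 FPKM, and double-negative cells were the highest Esrrb/Tbx3 fraction for 90 of 107. Zscan4-negative cells lay below double-negative cells for 68 of them. Medians over the 101 rows higher in double-positive cells were 3.30, 6.67, 12.2, 3.37 and 6.23 FPKM, and double-positive cells were the highest Esrrb/Tbx3 fraction for 83 of 101. Over all compared rows the medians were 13.9, 13.8, 13.1, 12.8 and 12.8 FPKM, and the matching counts are not given here. The double-positive and Zscan4-negative columns chose the called rows, so their medians and counts partly follow from the rule and are a description only. Zscan4-positive cells were 2-fold lower than Zscan4-negative cells for 55 of 107 and 2-fold higher for 28 of 101. This comparison shares the Zscan4-negative column. Its share over all rows is not given here, so these counts are a description only.

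**Figure D4:**
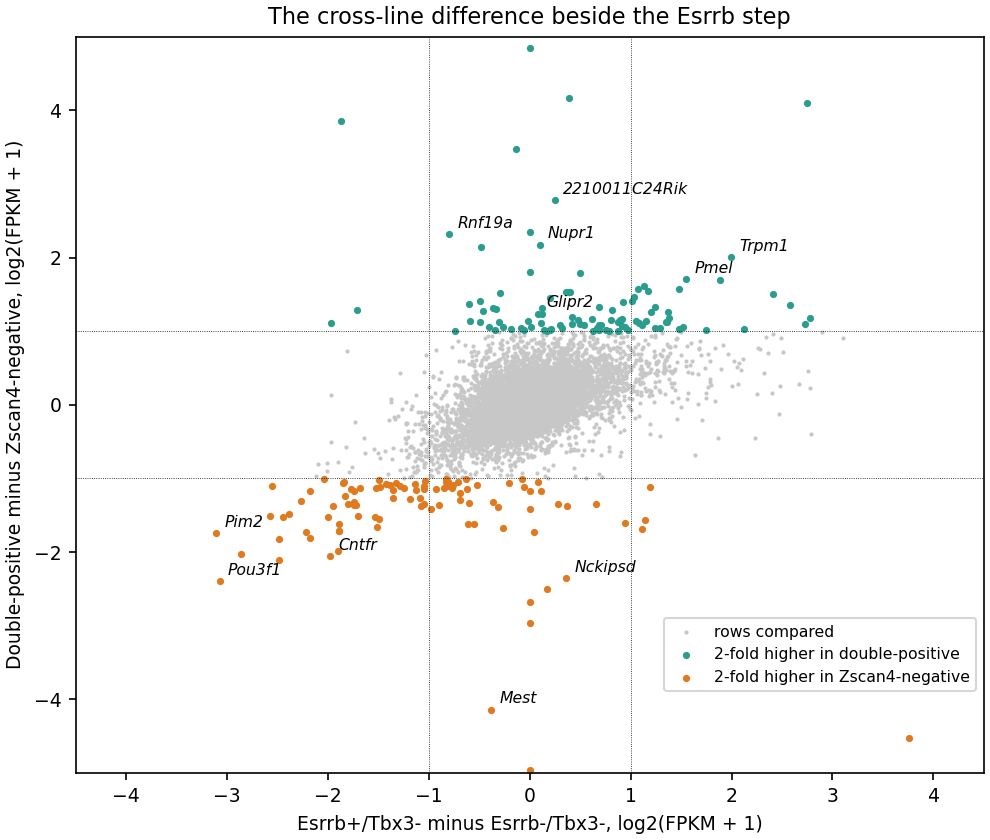
Double-positive minus Zscan4-negative (y axis) against Esrrb+/Tbx3- minus Esrrb-/Tbx3- (x axis), both differences of log2(FPKM + 1), with dotted lines at 2-fold and 13 rows outside the plotted range. Rows higher in Zscan4-negative cells (orange) lie mostly to the left, as Pou3f1 and Pim2 do, whereas Mest and Rnf19a are within 2-fold on the x axis.

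Naive factors leaned toward double-positive cells and formative genes toward Zscan4-negative cells. Of 17 naive factors, 16 were above 0 and the median was 0.47, beside 0.01 over all rows, where 6244 of 12021 were above 0. None was 2-fold higher in double-positive cells. Over all rows, 0.840% were 2-fold higher in double-positive and 0.890% in Zscan4-negative cells. Tcl1, a coactivator of AKT kinase, came nearest at 0.90, with 13.6, 80.8, 141, 74.7 and 113 FPKM, and Nanog was at 79.8, 278, 388, 257 and 522 FPKM. Gbx2, a homeobox gene placed in this list, went the other way at 45.5, 26.2, 23.3, 52.3 and 18.0 FPKM, a difference of -1.14. The 12 pluripotency factors common to naive and primed cells had a median of 0.01, and none reached 2-fold. Of 14 formative and primed genes, 12 were below 0, 7 were 2-fold higher in Zscan4-negative cells, and the median was -0.99. Besides Pou3f1, Sox3, Pim2, Sall2 and Car4 these were Wnt8a, a WNT ligand gene at 6.49, 0.336, 0.417, 4.03 and 1.34 FPKM, and Dnmt3a, a de novo DNA methyltransferase gene at 42.1, 19.8, 15.9, 36.4 and 16.0. Zic2 and Foxd3, at 0.75 and 0.66, were the members above 0.

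Signalling genes differed in smaller steps. For comparison, 5777 of all 12021 rows were below 0 and 0.890% were 2-fold higher in Zscan4-negative cells. Of 13 FGF/ERK response genes, 12 were below 0, with a median of -0.47, and 1 was 2-fold higher in Zscan4-negative cells. That gene was Etv4, an ETS factor gene induced by ERK, at 7.87, 8.38, 14.1, 30.2 and 18.2 FPKM, and both Zscan4 fractions were above the Esrrb/Tbx3 line. Spry4, a feedback inhibitor of the pathway, was at 25.4, 28.9, 33.5, 62.5 and 56.7 FPKM, again without overlap between the lines, at a difference of -0.88. At any size, 11.6% of all rows had both Zscan4 fractions above every Esrrb/Tbx3 fraction. Of 8 BMP response genes, Id2 and Id1, inhibitors of basic helix-loop-helix factors, were 2-fold higher in Zscan4-negative cells, with Id1 at 55.7, 31.3, 16.7, 35.6 and 50.6 FPKM. Of 7 WNT response genes this held for Ccnd2, a D-type cyclin gene at 29.5, 15.3, 4.58, 13.4 and 6.0. None of 11 LIF/STAT3 response genes reached 2-fold, and their median was 0.10.

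Among imprinted genes, Mest had the largest difference. Of 17 paternally expressed genes, 3 were 2-fold higher in Zscan4-negative cells, none was higher in double-positive cells, and the median was -0.49. The shares over all rows were 0.890% and 0.840%. Peg10, a gene derived from a retrotransposon, was at 98.5, 25.8, 23.2, 73.1 and 37.6 FPKM and differed by -1.61. Zdbf2 was at 5.27, 2.04, 2.29, 5.73 and 3.57 FPKM, and its double-negative level, like that of Peg10, was close to or above Zscan4-negative cells. Mcts2, an imprinted retrogene, was at 11.2, 12.5, 11.1, 20.9 and 24.3 FPKM, a difference of -0.86 beside -4.14 for Mest. The lines did not overlap for Mcts2, which in this direction and at any size held for 11.6% of all rows. Peg3 and Snurf differed by -0.15 and 0.03. Of 16 maternally expressed genes, Rian and Cdkn1c were 2-fold higher in Zscan4-negative cells and the median was -0.05. Rian, a noncoding RNA of the Dlk1-Dio3 cluster, was at 208, 100, 90.7, 196 and 75.5 FPKM, and Meg3 from the same cluster was at 137, 79.1, 85.7, 155 and 53.7. H19 was at 146 and 102 FPKM in double-negative and single-positive cells and at 2.16, 1.71 and 2.07 in the others, so it did not follow the lines but followed the 2 fractions with the fibroblast and T-cell profile.

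Genes of the 2-cell-like state were low in both fractions of the pair. Only 4 of 24 rows reached 1 FPKM in either column, and 2 of these, Gm5662 and Gm8300, were 2-fold higher in double-positive cells. All 4 passed through double-positive cells alone, at 1.19 to 2.04 FPKM against 0.133 to 0.310 in Zscan4-negative cells. Their direction and list median were thus fixed or favoured by that minimum. Gm5662 was at 0.505, 0.171, 2.04, 0.216 and 191 FPKM. Over all 24 rows, 21 were higher in double-positive than in Zscan4-negative cells, 1 was lower and 2 were equal. Zscan4-negative cells were sorted for absence of the Zscan4c reporter, and double-positive cells were not. The rows include Zscan4 genes, so this direction is a description only. The median of the 24 rows was 0.273 FPKM in the double-positive fraction, 0.0512 in the Zscan4-negative one and 30.7 in the Zscan4-positive one. For the double-negative fraction it was 0.203 FPKM and for the single-positive one 0.0329, so single-positive cells stood below Zscan4-negative ones. These rows include near-identical copies that share reads, so they are not separate observations and the split among them is uncertain.

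ATF4 response genes leaned toward double-positive cells, and germline genes did not as a list. For comparison, 6244 of all 12021 rows were above 0. Of all rows, 0.840% were 2-fold higher in double-positive and 0.890% in Zscan4-negative cells. Of 14 ATF4 response genes, 13 were above 0 with a median of 0.45, and Asns, the asparagine synthetase gene, was 2-fold higher, at 146, 158, 217, 99.9 and 130 FPKM. Of 15 germline genes, Hormad1, Tuba3a and Rhox5 were 2-fold higher, while 7 members were above 0 and 8 below, and the median was -0.05. Hormad1, which encodes a meiotic chromosome axis protein, was at 7.22, 9.96, 13.4, 5.29 and 10.3 FPKM. Of 16 interferon and antigen presentation genes, 3 were 2-fold higher in Zscan4-negative cells and the median was -0.61. Gbp2, an interferon-induced GTPase gene, was at 29.1, 4.39, 0.891, 7.15 and 1.09 FPKM, and Psmb8, an immunoproteasome subunit gene, was at 69.1, 35.7, 1.73, 5.03 and 1.91. Both were highest in double-negative cells. The fibroblast genes summed to 2827 FPKM there and to 2125 for the single-positive fraction. Within the pair this sum was 375 in double-positive and 315 in Zscan4-negative cells, of which Fn1 gave 231 and 179. Fn1 was high in every fraction. Col1a1, at 477 and 348 FPKM in double-negative and single-positive cells, was at 6.32 and 5.61 in the pair. Single-positive cells stood below Zscan4-negative cells for Gbp2 but above them for Psmb8. The part of the fibroblast and T-cell profile in these differences was not tested.

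**Figure D5:**
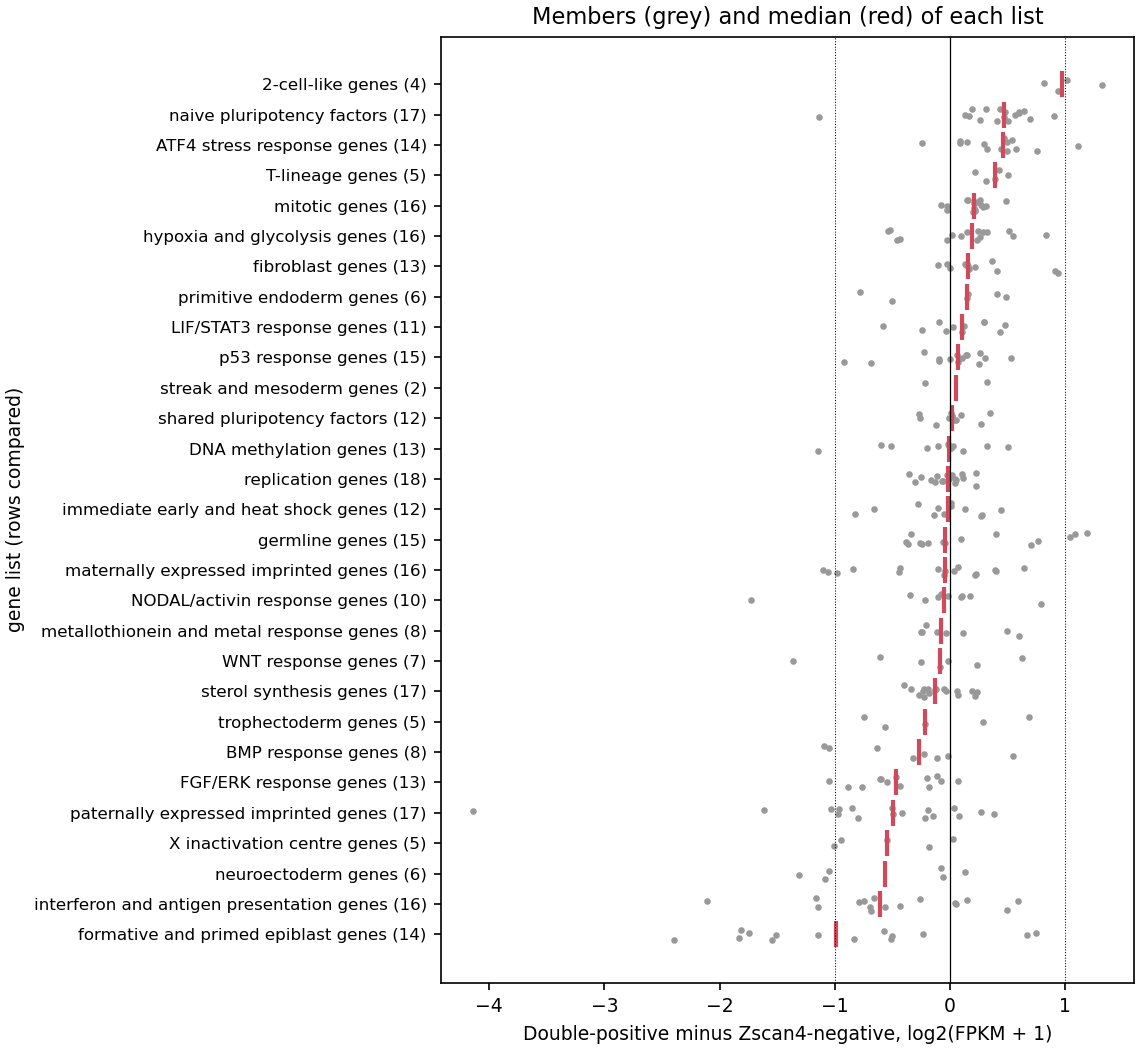
Double-positive minus Zscan4-negative differences of log2(FPKM + 1) for the members of 29 gene lists (grey points) with their medians (red bars), ordered by median, dotted lines marking 2-fold and the number of rows compared in brackets. Formative and primed genes lie lowest with a median of -0.99, naive factors have a median of 0.47, and Mest is the point at -4.14. The 2-cell-like rows passed the minimum level through double-positive cells alone, which favours a median above 0.

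Neuroectoderm genes were split between members higher in Zscan4-negative cells and members nearly level, and markers of other cell types differed less. No member of the fibroblast, T-lineage, primitive endoderm, trophectoderm or streak lists reached 2-fold. In the neuroectoderm list, 3 of 6 genes were 2-fold higher in Zscan4-negative cells, namely Sox11, Nes and Sox1. Nes and Sox1 were low, at 0.905 and 0.295 FPKM in double-positive and 3.04 and 1.69 in Zscan4-negative cells. Map2, Pax6 and Tubb3 were nearly level, with differences of -0.08, -0.06 and 0.13. Of the 6, 5 were below 0, and the median was -0.56. Among all 12021 rows, 5777 were below 0 and 0.890% were 2-fold higher in Zscan4-negative cells. Sox11, a SOX-family factor gene, was at 11.6, 2.77, 2.19, 6.93 and 3.48 FPKM. The summed level of all 8 neuroectoderm genes on the list was 80.5 FPKM in double-positive and 85.3 in Zscan4-negative cells, of which the neuronal tubulin gene Tubb3 gave 55.9 and 51.1. None of the p53, hypoxia, sterol synthesis, immediate early, metallothionein, mitotic or replication genes reached 2-fold. Dnmt3a was the 1 of 13 DNA methylation genes that did.

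Position along the genome showed no broad shift. Median differences by chromosome ranged from -0.03 on chromosome 3 to 0.04 on chromosome 19, beside 0.01 over all rows. The share of rows called ran from 0.53% on chromosome 10 to 3.09% on chromosome 6. Near Esrrb and Tbx3, which carry the knock-in reporters, 4 and 1 neighbouring rows within 500 kb could be compared and none reached 2-fold. Of the 77 coding or long noncoding rows higher in Zscan4-negative cells, 8 lay within 100 kb of another one, among them Car2 beside Car3, Cntfr beside Enho, and Zyx with Epha1, whose deposited interval is the same. No such pair was found among the 79 rows higher in double-positive cells. The share of close neighbours over all compared rows is not given here, so these counts are a description only.

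Counts of low rows depend on the pseudocount: with 0.1 FPKM in place of 1, 251 rows were higher in double-positive and 246 in Zscan4-negative cells, while the directions of the genes named by the size rule were kept. With the columns scaled to equal FPKM totals, these counts were 82 and 119, and Gm8300 (0.99) and Rhox5 (0.98) fell short of 2-fold.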

How the data were processed

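Per the series' description, 2 libraries were made for each of 5 sorted fractions, and per the labels' protocols RNA was purified with an RNeasy kit and prepared with the NEBNext Ultra kit. The authors deposited 1 FPKM value per row and fraction, so that the 2 libraries are merged and replicates cannot be compared. FPKM removes transcript length and mapped fragments, and depth is lost with it. The submitters' processing notes name bcl2fastq 1.8.4, TopHat2 2.0.14, Cufflinks, Cuffdiff 2.2.1 and mm10. For the annotation used and the normalization between libraries, the record is: not given in the sources used here.

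Rows with at least 1 FPKM in either column were compared as differences of log2(FPKM + 1), with 187 Y-linked rows left out, 4 of which reached that level. Planned count tests could not be used on 1 value per fraction, and differences were described by a size rule of 2-fold. Members and lists were chosen with earlier results of these data known. The text names the 15 largest coding or long noncoding differences per direction with at least 5 FPKM, the rows separating the lines, up to 4 members past 2-fold per list, neighbours within 500 kb and the 5 profiles nearest to Mest. A few results that this rule selects are left out of the text. Other list members, rows just outside the line rule, host genes and reporter genes were named for context after values were seen. The 30 lists held 437 genes, of which the 6 hemoglobin genes gave no row to compare. Gene kinds came from a RefSeq table, which did not hold the symbol of 430 of the 12021 rows. Coordinates are those of GENCODE M21 on the same assembly. Alternatives covered pseudocount, minimum level, fold, scaling, summed rows and kind of gene. Python 3.11.15, pandas 2.3.3, numpy 2.4.6 and matplotlib 3.10.9 were used, and the steps were tested on simulated data.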

Additional observations from a re-analysis of the deposited data

How the results depend on the processing

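No paired analysis was possible because each fraction has 1 merged value, and for the same reason no replicate could be left out. With a pseudocount of 0.1, 251 rows were higher in double-positive and 246 in Zscan4-negative cells, 23 and 17 separated the lines, and 22 and 5 did so in all 6 pairs. With a 1.5-fold rule these counts were 514, 388, 47, 32, 37 and 16. With coding and long noncoding rows only, 4 and 3 rows separated the lines and 3 did so in all 6 pairs in favour of the Esrrb/Tbx3 line. Leaving out the double-negative and single-positive columns, an alternative chosen after seeing the data, gave 31 and 23 rows that separated the lines. The 2-cell-like list median rests on rows that passed the minimum level through double-positive cells alone. A pseudocount of 0.1 moved the medians of the 2-cell-like list to 2.27 and of the neuroectoderm list to -0.85, and changed 27 of 29 list medians by less than 0.2. Scaling by median ratios or to equal totals changed none of the 29 by that much. Under equal totals 82 rows were higher in double-positive and 119 in Zscan4-negative cells. The median of all rows was then -0.04, and Gm8300 (0.99) and Rhox5 (0.98) fell short of 2-fold. Of 65 rows called in the pair and followed by name, the other 63 kept their call, as did all 65 under median ratios and under a pseudocount of 0.1. All 8 and 6 rows that separated the lines were kept under both scalings and the 0.1 pseudocount. Foxd4 and AK215960 were lost with a minimum of 5 FPKM, and BC116202 with rows summed by symbol. Without replicates, no difference can be set against the spread between libraries, and line, sort and collection day cannot be told apart.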

Other observations

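Several coding genes above the size rule in the pair also stood on 1 side of the lines with no overlap, without passing all 4 differences. Of the 101 rows higher in double-positive cells, 25 had every Esrrb/Tbx3 fraction above both Zscan4 fractions, and of the 107 higher in Zscan4-negative cells, 13 had the reverse, while over all 12021 rows, at any size, 13.4% and 11.6% did. The 25 and 13 cover rows of every kind and include rows that passed all 4 differences. The called rows were chosen for their difference in 1 of the 6 pairs, so their shares are a description. One coding gene with no overlap that did not pass all 4 differences is Plet1. It encodes a surface protein of placental and epithelial progenitors and was chosen after its values were seen. It was at 7.24, 5.21, 7.95, 3.31 and 3.47 FPKM, in the order used above, with a difference of 1.05.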
